A study of Mus musculus with 6 samples.

Results

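The mouse tropomyosin family has 4 genes, Tpm1, Tpm2, Tpm3 and Tpm4, and all 4 were found among the 14807 genes that carried a single symbol on the arrays. They were picked by symbol, and for each gene the brightest of its transcript clusters was used, a transcript cluster being the set of array probes summarised into a single gene-level value. Only Tpm3 had more than 1 cluster, so the family took up 5 of 17213 clusters. The cells were N2A, a line derived from a mouse neuroblastoma, and total RNA was hybridised to Affymetrix mouse exon arrays. One group had been treated with an empty vector (3 arrays) and the other with an shRNA for PTB (3 arrays). The labels state a loss of PTB protein close to 80% and name the samples biological replicates, without saying whether they came from separate cultures, so p-values measure the spread between these samples. The controls carried an empty vector and not a control hairpin, so loss of PTB and other effects of a hairpin cannot be told apart.

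Tropomyosins are coiled-coil dimers that lie end to end along actin filaments and set which myosins, cofilin and other proteins reach the filament. Each gene makes several isoforms through alternative starts and alternative exons, some of them restricted to muscle and others found in nearly all cells. The polypyrimidine tract binding protein PTB, product of Ptbp1, is known, from work on the rat genes, to silence an exon of Tpm1 in smooth muscle cells and a skeletal muscle exon of Tpm2 in non-muscle cells. Gene-level signals were analysed, which do not show exon use, so those splicing events were not measured. The arrays of the empty vector group are called control arrays and those of the PTB shRNA group hairpin arrays.

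Ptbp1 signal fell to 35.9% of its empty vector mean, with Ptbp1 at 1307, 1040 and 1957 on the hairpin arrays. Summed signal per array lay between 10651755 and 12509077 with empty vector and between 9098056 and 10440265 with PTB shRNA, while array medians were between 183 and 206. Over all clusters, the median log2 difference was -0.25 in the brightest 10%, which held Tpm1, Tpm3 and Tpm4, and 0.22 between 30% and 40% of the way up from the dimmest, where Tpm2 lay. Quantile normalization, which gives all arrays the same distribution, brought both of these medians to 0.02. Differences under quantile normalization are therefore given beside those on the deposited scale for the tropomyosin genes and the genes named from each list.

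Tpm4 fell to 44.2% and Tpm3 to 63.9% of their empty vector means with PTB shRNA, whereas Tpm1 and Tpm2 did not pass the test. Differences were taken as PTB shRNA minus empty vector on log2(signal + 16) and tested with limma, with Benjamini-Hochberg adjustment over all clusters and a threshold of 0.05. By this rule 2 of the 4 genes were lower and none was higher, against 3.37% of all clusters lower, 1.36% higher and 4.73% either way. After quantile normalization the same 2 genes were lower, against 2.85% of all clusters lower and 2.94% higher. The median log2 difference was -0.41 over the 4 genes and 0 over all clusters, but -0.25 over the brightest 10%, which held Tpm1, Tpm3 and Tpm4. In bulk RNA, fewer cells expressing a gene and less RNA per cell cannot be told apart.

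Tpm4 codes for a tropomyosin found mainly in short forms in the cytoskeleton of non-muscle cells. The control arrays read 4680, 4686 and 5754, and the hairpin arrays read 2280, 1837 and 2567. Every hairpin array was far below every control array, and the groups did not overlap, as for 19.0% of all clusters in this direction and 10.3% in the other. The mean fell from 5040 ± 618 to 2228 ± 368 (SD, n = 3 arrays per group). The log2 difference was -1.18 ± 0.16 (SE), with a 95% interval from -1.58 to -0.78 (limma adjusted p = 0.0336). Only 0.418% of all clusters had a lower difference, which places Tpm4 as number 73 from the lowest. Under quantile normalization the log2 difference was -0.91 ± 0.11 (adjusted p = 0.0259). With any 1 array left out the log2 difference stayed between -1.29 and -1.05, but the adjusted p was between 0.0536 and 0.118, so the call ended each time. It also ended with a pseudocount of 1 (adjusted p = 0.0505).

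Among the hairpin arrays, replicate 2 had the lowest signal of both Ptbp1 and Tpm4, and replicate 3 the highest of both. The same order held for the brighter Tpm3 cluster and for Tpm1 and Tpm2, which did not pass, though Tpm1 replicates 1 and 2 read 1411 and 1410. It did not hold for the other Tpm3 cluster, where replicate 1 was highest (2143, 1855 and 2111). Replicate 2 also had the lowest summed signal, 9098056, but replicate 1 had the highest, 10440265 against 10123948 for replicate 3. The part of array scale in this order was not tested.

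Tpm3, whose products include both a slow skeletal muscle form and short cytoskeletal forms, fell too. The control arrays read 3078, 3193 and 3385, and the hairpin arrays read 2148, 1859 and 2166. The groups were separate, with the lowest control array well above the highest hairpin array. The mean went from 3219 ± 155 to 2058 ± 172. This was a log2 difference of -0.64 ± 0.10 (SE, 95% interval -0.89 to -0.40, limma adjusted p = 0.0357), and -0.40 ± 0.07 after quantile normalization (adjusted p = 0.0408). On the deposited scale 5.4% of all clusters had a lower difference, which places Tpm3 as number 931 from the lowest. Leaving out any 1 array gave -0.68 to -0.57 with adjusted p between 0.058 and 0.122, so this call too ended each time, as it did with a pseudocount of 1 (adjusted p = 0.0542).

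A further cluster carried the Tpm3 symbol. Its control arrays read 2582, 3003 and 3199 and its hairpin arrays 2143, 1855 and 2111, again without overlap. Its log2 difference of -0.52 ± 0.12 (SE) did not pass (limma adjusted p = 0.0686). Once each profile was centred on its own mean, both Tpm3 clusters lay 0.08 log2 units apart (root mean square over 6 arrays), less than any pair of different tropomyosin genes. Genes outside the family lay closer to the brighter cluster, among them Ccdc126, Wdfy1 and Ing2 (0.02, 0.02 and 0.03). The distance therefore does not show that both clusters measure the same RNA. RefSeq also lists 3 Tpm3 pseudogenes, Tpm3-rs2, Tpm3-rs3 and Tpm3-rs7, on chromosomes 4, 6 and 14. Probes that match such copies could share signal, so it is uncertain whether both clusters measure the same RNA.

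Tpm1, the gene of the tropomyosin that dominates in heart and in many smooth muscles, differed little in total signal. The control arrays read 1471, 1666 and 1865 and the hairpin arrays 1411, 1410 and 1612, so the groups overlapped. The means were 1667 ± 197 and 1478 ± 116. The log2 difference was -0.17 ± 0.12 (SE) with a 95% interval from -0.47 to 0.13 (limma adjusted p = 0.441), and it turned to 0.03 after quantile normalization (interval -0.16 to 0.23, adjusted p = 0.842). Neither the fall of Tpm4 nor that of Tpm3 on the same scale lies within these intervals, which hold small changes of either sign.

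Tpm2, a gene best known from skeletal and smooth muscle, gave dim signals on every array. The control arrays read 45, 46 and 45 and the hairpin arrays 52, 41 and 54, under the array medians throughout. The hairpin arrays lay on both sides of the control arrays. The means were 45.3 ± 0.58 and 49 ± 7, a log2 difference of 0.08 ± 0.10 (SE, 95% interval -0.18 to 0.34, limma adjusted p = 0.692) that turned to -0.15 after quantile normalization (adjusted p = 0.525). A pseudocount of 16 understates changes at such signals, and with a pseudocount of 1 the log2 difference was 0.10.

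**Figure D1:**
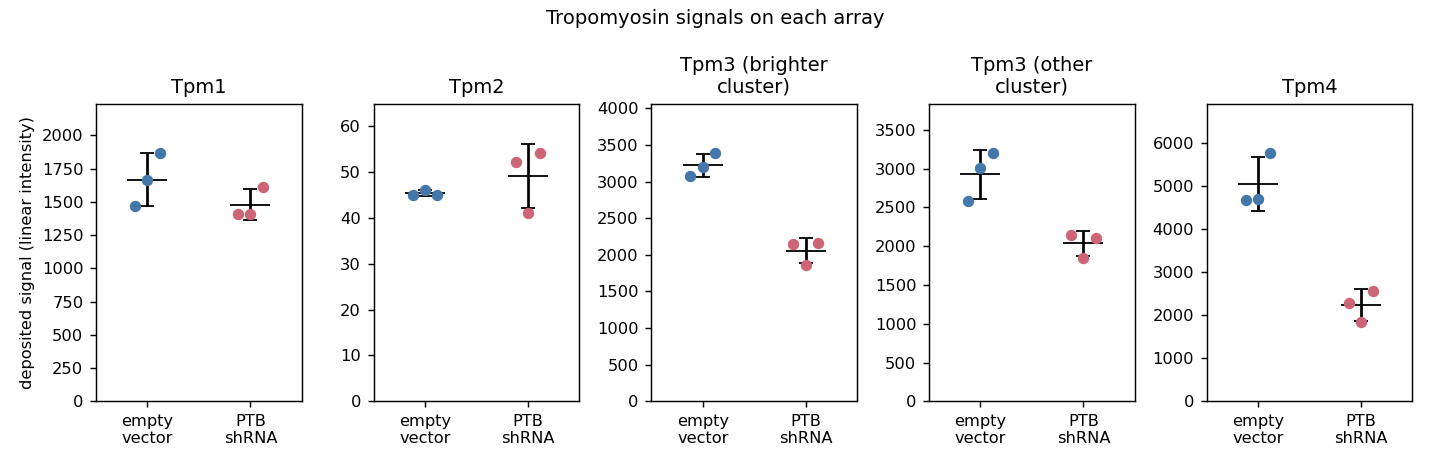
Deposited signal (linear intensity, axis from 0) of the 5 tropomyosin transcript clusters. Points are single arrays, 3 per group, with the group mean and SD in black. Tpm4 and both Tpm3 clusters are lower on every PTB shRNA array than on any empty vector array, while Tpm1 and Tpm2 overlap between the groups.

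A log2 ratio between tropomyosin genes within an array cancels a factor common to the whole array, but not a shift that varies with brightness. The log2 ratio of Tpm1 to Tpm4 was -1.66, -1.48 and -1.62 on the control arrays, and it was -0.69, -0.38 and -0.67 on the hairpin arrays. All hairpin arrays had a higher ratio than all control arrays, with a shift of 1.01. The log2 ratio of Tpm3 to Tpm4 went from -0.60, -0.55 and -0.76 to -0.09, 0.02 and -0.24, a shift of 0.53. Here too each hairpin array was above each control array. The Tpm1 to Tpm3 ratio shifted by 0.48, from a mean of -0.95 ± 0.10 to -0.47 ± 0.11 (SD, n = 3), and the ratios of Tpm2 to Tpm3 and to Tpm4 by 0.72 and 1.26. After quantile normalization the shifts among the bright genes were 0.94 for Tpm1 to Tpm4, 0.50 for Tpm3 to Tpm4 and 0.44 for Tpm1 to Tpm3, while those of the dim Tpm2 to Tpm3 and to Tpm4 came down to 0.25 and 0.75. For each of these 5 ratios the two-sided exact permutation p was 0.1, the smallest that 3 arrays against 3 allow, and 0.12 when adjusted over all 6 pairs. Unequal shifts could thus not reach 0.05 by this test. Each shift is also the difference between the log2 differences of its genes given above, so these 5 ratios are not separate findings. The Tpm1 to Tpm2 ratio overlapped between the groups, with a shift of -0.25 (exact permutation p = 0.2, adjusted p = 0.2) that turned to 0.19 after quantile normalization.

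**Figure D2:**
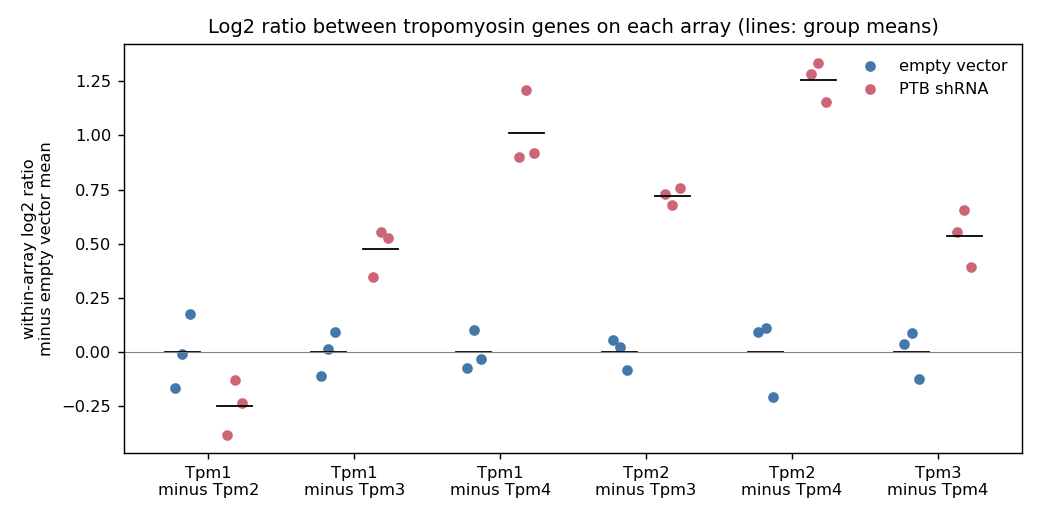
Within-array log2 ratio of each pair of tropomyosin genes, shown relative to the empty vector mean of that pair. Points are single arrays and lines are group means, and the means shift by 1.26 for Tpm2 to Tpm4, 1.01 for Tpm1 to Tpm4, 0.72 for Tpm2 to Tpm3, 0.53 for Tpm3 to Tpm4, 0.48 for Tpm1 to Tpm3 and -0.25 for Tpm1 to Tpm2.

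Promoter sequence is shown for the genes that were lower, Tpm4 and Tpm3, and for Tpm1, which did not pass, so that the windows can be set side by side. Each window is the 250 bases before an annotated start in RefSeq (GRCm38.p6), written 5′ to 3′ on the gene's strand, and Tpm3 has a window for each of its annotated starts. All 4 genes matched the RefSeq table. Capitals mark matches to motifs searched on both strands, which were GGGCGG (known from Sp1 binding), TGACGT (part of the cAMP response element) and GGAATG (known from TEAD factors). The CArG box, which binds serum response factor, was searched too. The motifs were chosen with the windows in view.
Tpm4, chr8:72135038-72135287, plus strand: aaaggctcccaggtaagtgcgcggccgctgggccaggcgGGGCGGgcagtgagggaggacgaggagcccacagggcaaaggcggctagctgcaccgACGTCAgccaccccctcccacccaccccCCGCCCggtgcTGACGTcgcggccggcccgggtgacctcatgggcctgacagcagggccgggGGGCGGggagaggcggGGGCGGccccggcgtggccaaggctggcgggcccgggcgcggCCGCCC
Tpm3 upstream start, chr3:90072401-90072650, plus strand: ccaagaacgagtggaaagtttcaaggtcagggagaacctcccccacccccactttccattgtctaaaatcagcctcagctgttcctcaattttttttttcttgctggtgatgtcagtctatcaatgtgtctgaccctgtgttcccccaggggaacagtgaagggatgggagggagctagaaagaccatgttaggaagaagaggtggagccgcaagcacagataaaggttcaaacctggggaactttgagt
Tpm3 downstream start, chr3:90079271-90079520, plus strand: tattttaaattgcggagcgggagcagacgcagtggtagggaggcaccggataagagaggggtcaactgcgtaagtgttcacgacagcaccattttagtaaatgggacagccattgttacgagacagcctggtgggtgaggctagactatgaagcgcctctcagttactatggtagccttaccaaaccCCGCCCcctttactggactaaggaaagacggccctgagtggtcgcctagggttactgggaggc
Tpm1, chr9:67049214-67049463, minus strand: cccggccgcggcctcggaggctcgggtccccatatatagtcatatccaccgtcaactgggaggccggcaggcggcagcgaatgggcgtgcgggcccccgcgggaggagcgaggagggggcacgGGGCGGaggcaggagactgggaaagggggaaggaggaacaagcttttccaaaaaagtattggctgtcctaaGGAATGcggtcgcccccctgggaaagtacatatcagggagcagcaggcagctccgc
The Tpm4 window was the richest in G and C, at 78.8%, against 48.8% and 53.6% for the Tpm3 windows and 65.2% for Tpm1. It held 5 matches to GGGCGG and 2 to TGACGT, the latter with first bases at -154 and -115 from the start. The downstream Tpm3 window held 1 match to GGGCGG and the upstream window held none of these motifs. The Tpm1 window held 1 match to GGGCGG and 1 to GGAATG, the latter at -56. A full CArG box was found in none of these windows nor in that of Tpm2, which held 2 matches to GGGCGG. Among 32851 windows of the same length in the table, 32.7% held GGGCGG, 6.47% TGACGT, 12.6% GGAATG and 1.47% a CArG box. None of the motifs overlapped another in these windows. The arrays do not tell which start was used.

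Genes whose products work with tropomyosin on the filament were read from 5 lists. Of 80 measured genes 4 passed, or 5%, near the 4.73% of all clusters. The lists were drawn up by function, but with earlier results of these data known. Among 16 measured pointed-end and nucleating partners, Tmod3 fell and Tmod1 rose, 14 did not pass, and the median log2 difference was -0.03. Both are tropomodulins, which cap the slow-growing end of actin filaments and bind the end of tropomyosin there. Tmod3, the widely expressed tropomodulin, read 1070, 1034 and 1488 on control arrays, then 566, 595 and 608 on hairpin arrays, a log2 difference of -0.98 ± 0.16 (SE, limma adjusted p = 0.0379). Tmod1, the form of red cells, heart and neurons, read 413, 387 and 465 and then 808, 789 and 717, a log2 difference of 0.85 ± 0.10 (limma adjusted p = 0.032). The groups were separate for both genes, in opposite directions, and both calls also stood after quantile normalization (-0.78 and 1.02). As for Tpm4, leaving out any 1 array ended these calls, with adjusted p from 0.0696 to 0.131 for Tmod3 and from 0.0536 to 0.112 for Tmod1.

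None of the 6 actin genes passed, with a median log2 difference of 0.00. Acta1, skeletal muscle actin, and Actg2, enteric smooth muscle actin, differed most (0.42 and -0.20, limma adjusted p = 0.158 and 0.439, and 0.20 and -0.40 after quantile normalization). The cytoplasmic actin genes Actb and Actg1, named after their values were seen, gave log2 differences of -0.17 and -0.14 that turned to 0.10 and 0.18 after quantile normalization. None of 25 measured genes of actin filament turnover passed either. Their median was -0.25, close to that of the brightest 10% of clusters, and 0.00 after quantile normalization, where 1 was called higher and 1 lower. The coronin genes Coro1b and Coro1c, which act with the Arp complex and cofilin, differed most in that list (-0.63 and -0.49, limma adjusted p = 0.0788 and 0.109, and -0.44 and -0.23 after quantile normalization).

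Of 13 measured genes of non-muscle myosin II and its regulators, 1 passed. This was Rhob, a small GTPase induced by stress and growth factors, which rose by 1.08 ± 0.13 on the log2 scale (SE, limma adjusted p = 0.032), with mean signals of 282 ± 24.8 and 616 ± 82.4 and a quantile-normalized difference of 1.23. The list's median was 0.02. Of 20 measured crosslinkers and tropomyosin-associated proteins, Tagln3 alone passed, and 3 were called higher after quantile normalization. The lowest differences of the list did not pass, and their genes are named here after their values were seen. The calponin gene Cnn2 gave -1.06, and the alpha-actinin genes Actn4 and Actn1 gave -0.90 and -0.70 (limma adjusted p = 0.102, 0.0734 and 0.111), each without overlap between the groups, and -0.90, -0.70 and -0.50 after quantile normalization. In the other direction, Pdlim7 and Enah, named in the same way, gave 0.60 and 0.33 (limma adjusted p = 0.0814 and 0.207). After quantile normalization these were 0.78 and 0.53, and both were called higher. Without the dimmest 30% or 50% of clusters, and with trend and robust eBayes, 3, 5 and 4 members of this list were called lower. Pointed-end and nucleating partners had 3, 3 and 3 lower, filament turnover 2, 5 and 3, and the myosin list 2, 4 and 2. Lower calls rose over all clusters too, from 580 of 17213 to 1502 of 17213 with trend and robust eBayes. They were 1386 and 2100 among the clusters left after 30% and 50% of the 17213 were dropped. The 50% filter also dropped 5 of the 20 crosslinkers, 9 of 16 pointed-end partners, 6 of 25 turnover genes and 3 of 13 myosin genes. These counts are thus not a result about the lists. Tagln3, the neuronal member of the transgelin family, rose from 610.3 ± 136 to 1175 ± 130 (log2 difference 0.94 ± 0.18, adjusted p = 0.0498, and 1.14 after quantile normalization), and the list's median was -0.14. Leaving out any 1 array ended both calls, with adjusted p between 0.0536 and 0.112 for Rhob and between 0.0749 and 0.155 for Tagln3.

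None of 8 measured genes of the list of serum response factor, its cofactors and some of their targets passed (median 0.18). Srf itself, whose product drives many actin and muscle genes, had signals of 458 ± 53.6 and 252 ± 71.5 and a log2 difference of -0.85 ± 0.22 (SE, limma adjusted p = 0.0867, and -0.74 after quantile normalization). It passed without the dimmest 30% or 50% of clusters (adjusted p = 0.0221 and 0.00219) and with trend and robust eBayes (adjusted p = 0.0184). Fhl2, a LIM-domain cofactor, had a difference of 0.31 (adjusted p = 0.114, and 0.20 after quantile normalization). Troponins bind tropomyosin in striated muscle, and 5 of 6 measured troponin genes had mean signals under the median cluster. None passed (median 0.09), the largest differences being those of Tnnc1 (0.81, adjusted p = 0.235, and 0.61 after quantile normalization) and Tnni2 (0.42, adjusted p = 0.217, and 0.21).

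Among 20 measured regulators known to act on tropomyosin exons, Ptbp1 fell and Ptbp2 rose, and the other 18 did not pass (median -0.07). Ptbp2, the neuronal paralog of PTB, had a log2 difference of 0.96, against -1.51 for Ptbp1, and Ptbp3 one of -0.58 (limma adjusted p = 0.0288, 0.0402 and 0.0543). After quantile normalization these were 1.18, -1.27 and -0.37. With that scaling 2 members of the list were called higher and 2 lower. Beside Ptbp2 and Ptbp1, the called genes were Celf1 (0.438, limma adjusted p = 0.0326) and Celf2 (-1.002, limma adjusted p = 0.0442). Both are named after their values were seen. On the deposited scale Celf1 gave 0.170 and Celf2 -0.799 (limma adjusted p = 0.507 and 0.122). Without any 1 array the adjusted p was 0.0536 to 0.112 for Ptbp2 and 0.0536 to 0.132 for Ptbp1. Mbnl1, a splicing factor reported to repress the same Tpm1 exon and named after its values were seen, gave -0.07 (adjusted p = 0.836), and 0.15 after quantile normalization.

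**Figure D3:**
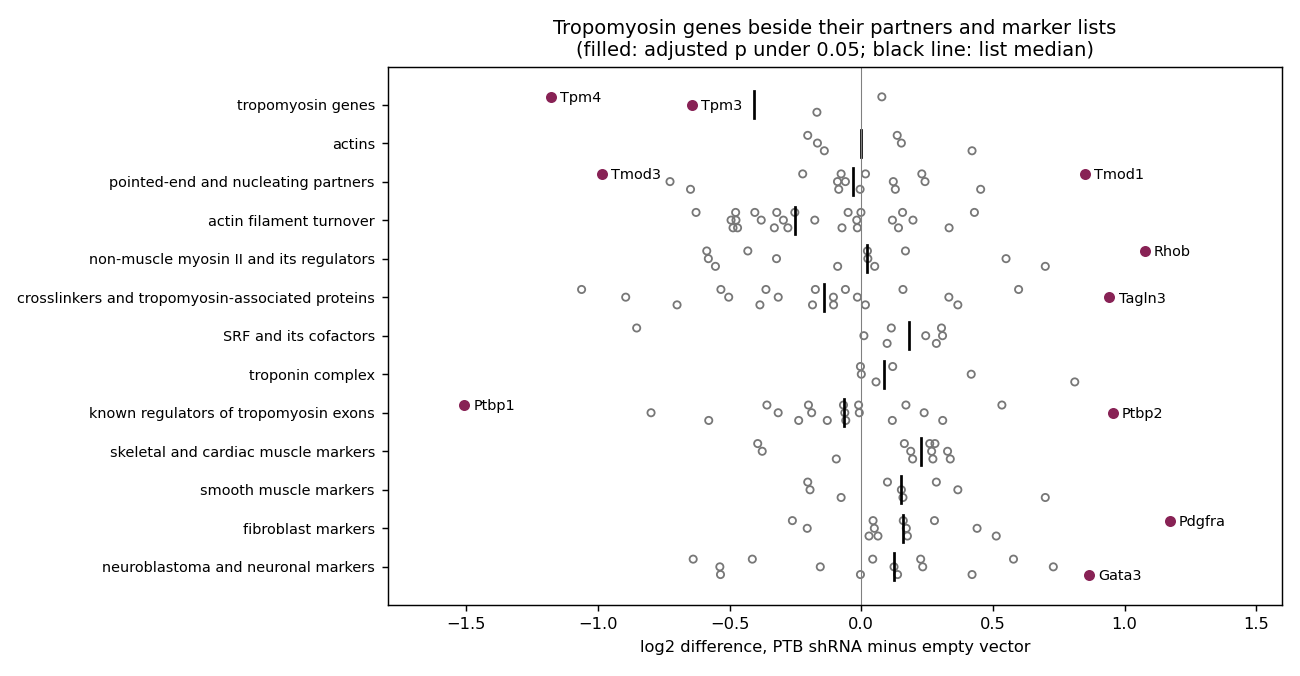
Log2 difference (PTB shRNA minus empty vector) of the 4 tropomyosin genes and of the measured members of 12 gene lists. Each point is a gene, filled where adjusted p was under 0.05, and black lines are list medians. Tpm4 and Tpm3 lie on the lower side, beside Tmod3 and Ptbp1, while Tmod1, Rhob, Tagln3, Ptbp2, Pdgfra and Gata3 lie on the higher side.

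Muscle cells and fibroblasts are rich in tropomyosin, so their markers were read on the same arrays. All 12 measured skeletal and cardiac muscle markers and all 9 smooth muscle markers had mean signals under the median cluster, and none passed. Summed signal of the skeletal and cardiac list was 416 to 457 with empty vector and 446 to 571 with PTB shRNA, and that of the smooth muscle list 282 to 363 and 280 to 344. Myog, a myogenic factor (-0.39), Des, the muscle intermediate filament desmin (-0.38), Mylk, a myosin light chain kinase (0.70), and Tagln, smooth muscle transgelin (0.37), differed most, with -0.60, -0.58, 0.51 and 0.19 after quantile normalization. The smooth muscle calponin gene Cnn1, named after its values were seen, was near 0 on every array (-4 to 5). Of 13 measured fibroblast markers 12 were under the median cluster, and the list's summed signal was 609 to 711 with empty vector and 754 to 1039 with PTB shRNA. The part of other cell types in the tropomyosin differences was not tested. Pdgfra, a growth factor receptor, was the 1 fibroblast marker that passed, rising from 36 ± 6.1 to 102 ± 21.5 (log2 difference 1.17 ± 0.17, SE, limma adjusted p = 0.0342, and 0.0536 to 0.121 without any 1 array), with 0.99 after quantile normalization. The median log2 differences of these 3 lists were 0.23, 0.15 and 0.16, and 0.04, -0.02 and -0.02 after quantile normalization.

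Of 15 measured neuroblastoma and neuronal markers, 3 had mean signals under the median cluster. These were Th, Nefm and Nefl, named after their values were seen, with means of 31.7, 18.7 and 12.3 with empty vector. The list's summed signal was 15749 to 19094 with empty vector and 16704 to 19925 with PTB shRNA, with a median log2 difference of 0.12. Gata3, a transcription factor of the sympathetic lineage, was the 1 member that passed, from 175 ± 33.2 to 328 ± 8.19 (log2 difference 0.87 ± 0.14, SE, limma adjusted p = 0.0384, and 0.0722 to 0.133 without any 1 array), with 0.94 after quantile normalization, where 3 members were called higher. Lineage genes with negative differences that did not pass, named after their values were seen, were Gata2 (-0.64), Chgb (-0.54), Phox2a (-0.53) and Chga (-0.41), with limma adjusted p from 0.0667 to 0.181. After quantile normalization these were -0.45, -0.34, -0.32 and -0.22. Genes of the list with positive differences that did not pass, named in the same way, included Isl1 (0.73), Gap43 (0.58) and Elavl4 (0.23). Their limma adjusted p was 0.15, 0.0811 and 0.348. After quantile normalization they gave 0.92, 0.88 and 0.45, and Gap43 and Elavl4 were called higher. Without the dimmest 50% of the 17213 clusters, which also dropped Th, Nefm and Nefl, 3 members of the list were called higher and 3 lower. Over all clusters kept, 386 were called higher and 2100 lower, against 234 and 580 without the filter. These member counts are thus not a result about the list.

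For each tropomyosin gene the 3 most similar profiles were sought among 7437 named genes brighter than the median cluster, by the root mean square difference over 6 arrays between log2 profiles, each centred on its own mean. Tpm4 was closest to Iqgap1, which codes for an actin-binding scaffold (0.05), then to Rnaseh2a, a subunit of ribonuclease H (0.06), and Cdkn3, a phosphatase of cyclin-dependent kinases (0.06), where the median distance over all these genes was 0.54. Iqgap1 signal went from 1127 to 482. Tpm3 was closest to Ccdc126, Wdfy1 and Ing2 (0.02, 0.02 and 0.03, median 0.28). Tpm1 was closest to Rnf115, Tmem14c and Farsa (0.02, 0.02 and 0.03, median 0.19), and Tpm2 to Ipo13, Flvcr1 and Trp53rkb (0.03, 0.04 and 0.05, median 0.22). These distances are descriptions, since the genes share arrays and with them array scale.

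**Figure D4:**
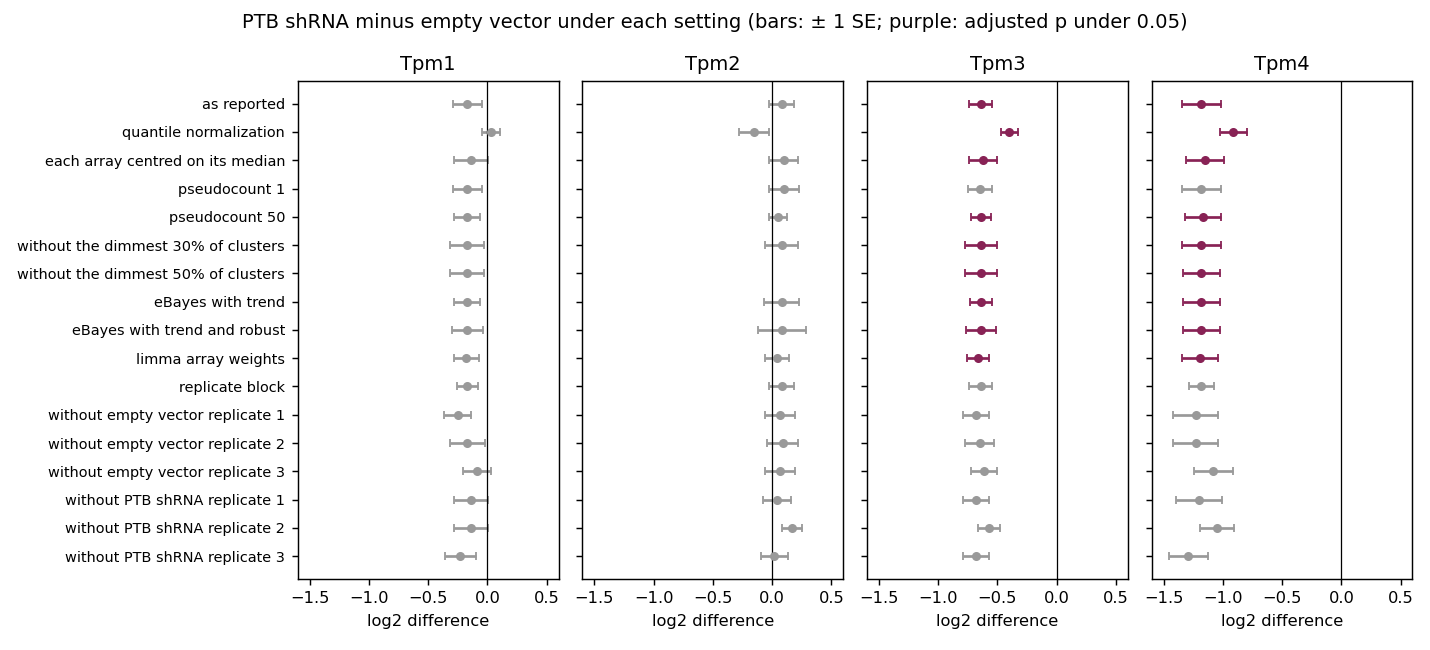
Log2 difference (PTB shRNA minus empty vector, ± 1 SE) of each tropomyosin gene under every setting tried, with purple for adjusted p under 0.05 and grey for the rest. Tpm4 and Tpm3 stay below 0 under each setting but lose their calls with a pseudocount of 1, with the replicate block and without any 1 array, while Tpm1 and Tpm2 change sign after quantile normalization.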

How the data were processed

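The deposited values are linear intensity per transcript cluster, whole numbers from -616 to 23431, and GCOS 1.3 is named per the submitters' processing notes. Of probe summary, background subtraction and array scaling, no method was given in the sources used here. Per the labels' protocols, 1 µg of total RNA was depleted of ribosomal RNA and labelled with biotin. Symbols came from the platform annotation: 15146 clusters had 1 symbol, 1278 several and 789 none.

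Negative values were raised to 0, and log2(signal + 16) of all 17213 clusters was fitted with limma 3.58.1 (R 4.3.3; lmFit, eBayes) on all 6 arrays, with 4 residual degrees of freedom and no block. Pairwise log2 ratios were tested with SciPy 1.17.1. Plots used matplotlib 3.10.9. The fit was tested on simulated data.

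The members and 12 gene lists were chosen with earlier results of these data known. Named genes were the members, the Ptbp genes, up to 4 called members per list (otherwise the 2 largest differences) and the 3 closest profiles. Alternatives were other scalings, pseudocounts, dim-cluster filters, eBayes settings, array weights, a replicate block and leaving out each array. The number of arrays limits precision.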

Additional observations from a re-analysis of the deposited data

How the results depend on the processing

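The log2 differences of Tpm4 and Tpm3 stayed negative under every alternative run. Their calls ended with a pseudocount of 1 (Tpm4 -1.18, adjusted p = 0.0505, and Tpm3 -0.65, adjusted p = 0.0542, limma), with the replicate number as a block (Tpm4 -1.18, adjusted p = 0.084, and Tpm3 -0.64, adjusted p = 0.0868, limma) and for the other Tpm3 cluster (-0.52, limma adjusted p = 0.0686). Among the other genes whose calls are reported, a pseudocount of 1 ended the calls of Ptbp1 (adjusted p = 0.0605), Tmod3 (0.0561), Tagln3 (0.0721), Pdgfra (0.0505) and Gata3 (0.0577), and the replicate block those of Ptbp1, Ptbp2, Tmod1, Tmod3, Rhob, Tagln3, Pdgfra and Gata3 (0.084 to 0.106). Calls were gained by Srf (3 settings, adjusted p from 0.00219 to 0.0221), Ptbp3 (7 settings, 0.0061 to 0.0473), Coro1b (4 settings, 0.00608 to 0.045) and Coro1c (1 setting, 0.0212), with the dim-cluster filters among them. Leaving out any 1 array gave -1.29 to -1.05 for Tpm4, -0.68 to -0.57 for Tpm3, -0.25 to -0.09 for Tpm1 and 0.02 to 0.17 for Tpm2, and no limma call for any of them. Quantile normalization reversed Tpm1 (0.03), Tpm2 (-0.15) and the Tpm1 to Tpm2 ratio shift (0.19), all uncalled, and among genes of similar profile Tmem14c (0.06) and Farsa (0.03). Array weights turned Flvcr1 to -0.03 and Trp53rkb to -0.01, and leaving out any 1 array gave -0.06 to 0.13 for Flvcr1 (negative without PTB shRNA replicate 3) and -0.01 to 0.12 for Trp53rkb (negative without PTB shRNA replicate 1). Tpm2 was not tested without the dimmest 50% of clusters.

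Over all clusters, 234 were called higher and 580 lower. Counts higher were 506 after quantile normalization, 376 with arrays centred on their medians, 84 with a pseudocount of 1, 499 and 386 without the dimmest 30% and 50%, 463 with trend and robust eBayes and 445 with array weights. Counts lower were 132 and 930 with pseudocounts of 1 and 50, 1386 and 2100 without the dimmest 30% and 50%, 1502 with trend and robust eBayes and 1180 with array weights. Fewer clusters tested is part of the filters' construction, and for the other settings the cause was not tested. Leaving out any 1 array brought both counts to 0 in limma, with 1001 to 1721 higher and 2008 to 3018 lower at an unadjusted p under 0.05.

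Same-numbered arrays of both groups had deviations from their group means that correlated at 0.232, 0.055 and 0.258 for numbers 1, 2 and 3. Not all are above 0.1, so the numbers were not taken to pair the samples, although every array correlated best with its own number. The replicate block gave 0 clusters higher and 0 lower in limma, with 1708 and 2963 at an unadjusted p under 0.05.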
